A study of Mus musculus with 9 samples.

Results

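Hedgehog signalling was followed through 8 genes in mouse brain: Shh, which encodes a secreted ligand, Ptch1, Hhip and Smo, which act at the cell surface, Sufu, which holds the pathway off inside the cell, and the transcription factors Gli1, Gli2 and Gli3. The 8 genes were chosen by gene symbol, with earlier results of these same arrays in view, and they are 8 of 19505 genes with a symbol among 22206 probe sets. Where a gene had several probe sets the one with the highest mean over the 9 arrays was to be taken, but each of the 8 had 1. Because Ptch1 was singled out with its signals known, its values are given as a description without a test.

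In the absence of ligand, the receptor Ptch1 keeps the membrane protein Smo inactive, and Gli proteins are processed to repressors or held by Sufu. Binding of a Hedgehog ligand to Ptch1 frees Smo, which acts at the primary cilium and lets Gli activators switch on targets that include Gli1, Ptch1 and Hhip, so that the pathway makes its own inhibitors. In the adult brain Shh is made mainly by neurons, and the responding cells with Gli1 and Ptch1 are largely astrocytes and stem cells.

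Signals were measured on Clariom S mouse arrays in brain of male C57BL/6JHamSlc mice, bought at 6 weeks of age and kept for 1 week before the study. The groups were C57BL/6JHamSlc-ob/ob mice given VE, an extract of Vigna umbellata, at 100 mg/kg by oral gavage for 42 days (ob/ob VE, 3 arrays), C57BL/6JHamSlc-ob/ob mice given vehicle for 42 days (ob/ob vehicle, 3 arrays), and C57BL/6JHamSlc-+/+ mice given vehicle for 42 days (wild type, 3 arrays), all on standard chow. The ob allele removes functional leptin from the whole body and from the start of life, so it is no model of a loss in the brain alone, and the labels name no brain region. They do not say outright that the arrays of a group are separate animals, so the spread between arrays may be partly technical.

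The design text of the series names white adipose tissue, whereas every sample label says brain. The mean of 5 adipocyte markers (Adipoq, Plin1, Fabp4, Retn and Cidec) lay between 5.30 and 5.67 log2 units over the 9 arrays, below every array's median over all probe sets (7.01 to 7.23), and that of 6 neuronal markers lay between 13.47 and 15.49. The second ob/ob VE array stood apart, with correlations of 0.962 to 0.970 with the others against 0.979 to 0.993 among those 8, and an SD over probe sets of 2.38 against 2.56 to 2.84. Values below are deposited log2 signals unless another quantity is named, differences are in log2 units, and a probe set is called at a limma adjusted p under 0.05 over all 22206 probe sets.

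Ptch1 signal was lower in ob/ob brain given vehicle than in wild type, and in ob/ob brain given VE it lay within the range of the wild-type arrays. On the ob/ob VE arrays Ptch1 read 9.80, 9.70 and 9.75, on the ob/ob vehicle arrays 9.16, 8.41 and 8.50, and on the wild-type arrays 9.84, 9.38 and 9.61. All 3 ob/ob vehicle arrays lay below all 6 others, with the first of them the nearest, and the ob/ob VE arrays lay inside the wild-type range. The mean was 9.75 ± 0.05 in ob/ob VE, 8.69 ± 0.41 in ob/ob vehicle and 9.61 ± 0.23 in wild type (SD, n = 3 each). The difference of ob/ob vehicle minus wild type was -0.92 (SE 0.232), a fold of 0.529, and that of ob/ob VE minus ob/ob vehicle was 1.06 (SE 0.232), a fold of 2.08. These 2 differences share the ob/ob vehicle arrays, so they are not independent. The difference of ob/ob VE minus wild type was 0.14 (SE 0.232), a fold of 1.10. This last difference was 0.025 to 0.255 without 1 array, 0.394 after quantile normalization and 0.354 after cyclic loess. Among all 22206 probe sets, 401 (1.81%) had as negative a difference as Ptch1 in ob/ob vehicle minus wild type, and 24 (0.108%) had as positive a one in ob/ob VE minus ob/ob vehicle. Ptch1 was chosen with these values in view, so the shares describe its place and are no test. Leaving out any 1 array, the difference from wild type ran from -1.155 to -0.78 and that of ob/ob VE minus ob/ob vehicle from 0.92 to 1.295. Less Ptch1 RNA per cell and fewer cells with Ptch1 cannot be told apart in whole tissue.

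Hhip, a membrane protein that binds Hedgehog ligands and keeps them from Ptch1, had the pattern nearest to that of Ptch1 among the 8 genes by its differences, at a smaller size. It read 9.12, 8.38 and 8.61 in ob/ob VE, 8.07, 7.86 and 8.18 in ob/ob vehicle, and 8.35, 9.0 and 8.37 in wild type. The ob/ob vehicle arrays were again the 3 lowest, but the nearest wild-type array was only just above them. The difference of ob/ob VE minus ob/ob vehicle was 0.67 (SE 0.250, n = 3, limma adjusted p 0.261), and that of ob/ob vehicle minus wild type was -0.54 (SE 0.250, n = 3, limma adjusted p 0.251). Neither passed, and with array weights the difference of ob/ob VE minus ob/ob vehicle was called (limma adjusted p 0.0384). That setting called 3307 of all 22206 probe sets in this comparison, against 108 without weights. For ob/ob VE minus wild type the Hhip difference was 0.13 (SE 0.250, limma adjusted p 0.858), with an interval of -0.41 to 0.67. Deviations of Hhip from its group means did not follow those of Ptch1 from array to array (Pearson r -0.143 over the 9 arrays, against 0.628 before group means were removed).

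**Figure D1:**
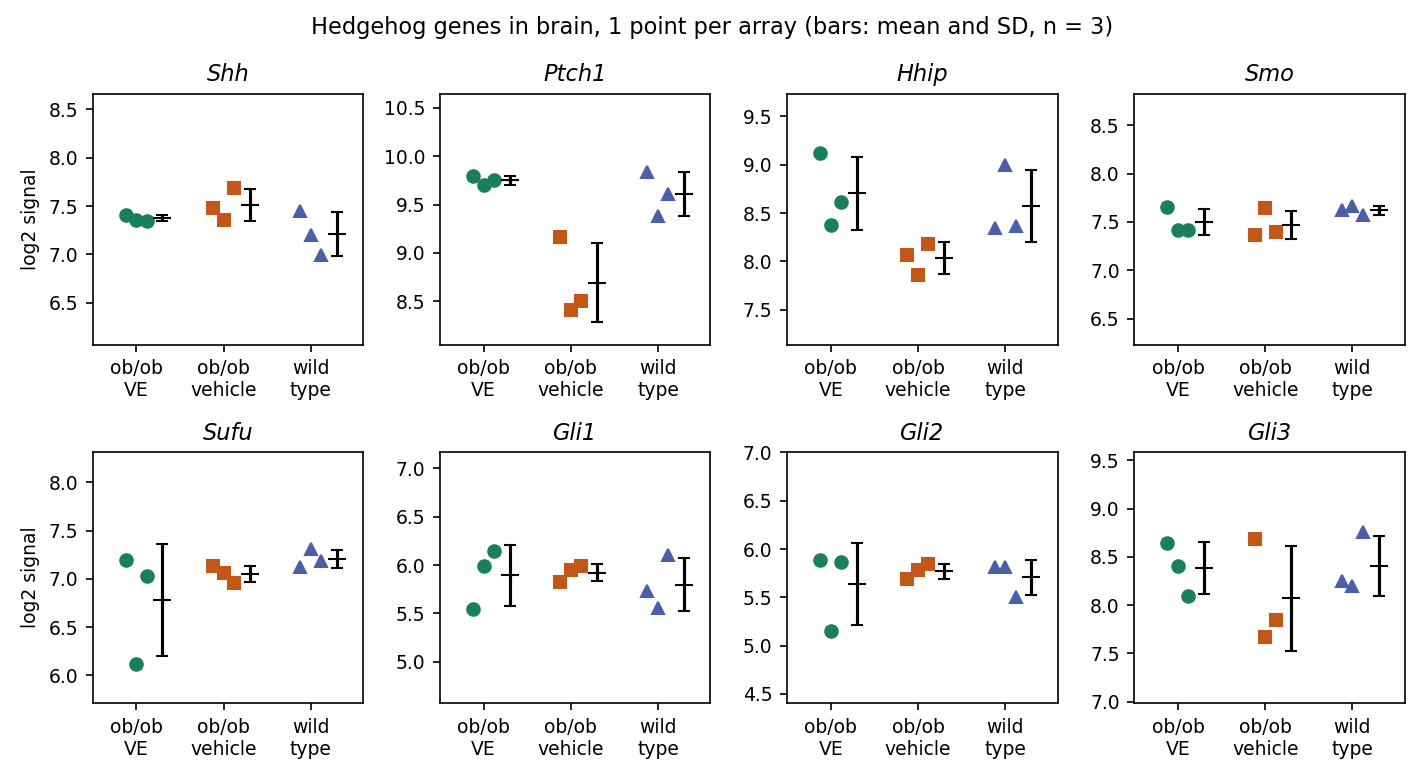
Log2 signal of the 8 Hedgehog genes on the y axis, each panel spanning the same range in log2 units, with 1 point per array for ob/ob VE, ob/ob vehicle and wild type (bars: mean and SD, n = 3). The ob/ob vehicle arrays are the 3 lowest for Ptch1 (8.41 to 9.16) and for Hhip (7.86 to 8.18), and the second ob/ob VE array is the lowest for Sufu (6.12) and Gli2 (5.15).

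The start sites of Ptch1 and Hhip are shown because these 2 genes of the 8 separated ob/ob vehicle from both other groups and are known targets of Gli factors. Of all probe sets, 17.5% had ob/ob vehicle below wild type without overlap, and 4.62% had ob/ob VE above ob/ob vehicle without overlap. The share with both was not counted, and nothing is read from this separation. Gli1, also a target, did not separate the groups. The 120 bases just before the start site are given 5′ to 3′ as in RefSeq on GRCm38.p6, at chr13:63565736-63565855 and chr8:80058009-80058128, both on the minus strand, and no letter is in capitals because none belongs to a motif match.
Ptch1: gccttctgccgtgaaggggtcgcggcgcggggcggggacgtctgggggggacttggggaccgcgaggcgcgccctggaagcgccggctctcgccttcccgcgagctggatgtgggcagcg
Hhip: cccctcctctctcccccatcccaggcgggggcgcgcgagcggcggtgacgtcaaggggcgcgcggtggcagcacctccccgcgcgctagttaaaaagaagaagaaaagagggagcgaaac
The Gli motif GACCACCCA, and a looser form GACCNCCCA that includes it, were searched on both strands of windows of 250 bases before to 50 after the start. Windows were at hand for 6 of the 8 genes (Ptch1, Hhip, Smo, Sufu, Gli2 and Gli3), and 0 of the 6 held either form. Over all 32851 windows, 0.253% held the first and 0.977% the looser form, so its lack in 6 windows says only that these letters are not in them. The 6 windows had 56.3% to 76.3% G and C, with 76.3% at Ptch1 and 73.7% at Hhip, against a median of 52.7% over all windows.

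Shh, the ligand gene, was not called in any comparison and was not lowest in ob/ob vehicle. It read 7.41, 7.36 and 7.35 in ob/ob VE, 7.48, 7.36 and 7.69 in ob/ob vehicle, and 7.45, 7.20 and 6.99 in wild type, and the 3 groups overlapped. Its difference was 0.30 in ob/ob vehicle minus wild type (SE 0.199, n = 3, limma adjusted p 0.421), with an interval of -0.13 to 0.73, and -0.14 in ob/ob VE minus ob/ob vehicle (SE 0.199, limma adjusted p 0.823). Of the other ligand genes, Dhh (desert hedgehog) was at 0.38 and Ihh (Indian hedgehog) at -0.17 in ob/ob vehicle minus wild type, and Dhh at -0.32 and Ihh at 0.55 in ob/ob VE minus ob/ob vehicle, none of them called (limma adjusted p 0.384, 0.769, 0.596 and 0.442).

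Smo, the transducer that Ptch1 restrains, had overlapping arrays in all groups: 7.66, 7.42 and 7.42 in ob/ob VE, 7.37, 7.64 and 7.40 in ob/ob vehicle, and 7.62, 7.67 and 7.57 in wild type. Its differences were -0.15 in ob/ob vehicle minus wild type (interval -0.56 to 0.26, limma adjusted p 0.688, n = 3) and 0.03 in ob/ob VE minus ob/ob vehicle (interval -0.38 to 0.44, limma adjusted p 0.965). Sufu, the cytosolic binder of Gli proteins, read 7.20, 6.12 and 7.03 in ob/ob VE, 7.13, 7.06 and 6.96 in ob/ob vehicle, and 7.12, 7.31 and 7.19 in wild type. The low value was on the second ob/ob VE array, the one that stood apart over all probe sets. The Sufu difference of ob/ob VE minus ob/ob vehicle was -0.27 (SE 0.259, n = 3, limma adjusted p 0.709), and 0.065 without that array.

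The Gli genes did not separate the groups. Gli1, the activator whose transcription is a common readout of the pathway, read 5.54, 5.99 and 6.15 in ob/ob VE, 5.82, 5.95 and 5.99 in ob/ob vehicle, and 5.73, 5.56 and 6.10 in wild type. Its difference was 0.12 in ob/ob vehicle minus wild type (interval -0.36 to 0.61, limma adjusted p 0.786, n = 3), and -0.03 in ob/ob VE minus ob/ob vehicle (interval -0.51 to 0.46, limma adjusted p 0.975). The signal differences of Ptch1 lay outside these intervals, but Ptch1 was chosen on its values, so nothing is read from this. Whether Ptch1 and Gli1 differed from each other in their change was not tested. Detection calls were not used here, and with a mean signal at the 28.7th percentile of all probe sets for Gli1 and the 25.6th for Gli2, these were dim probe sets. How far their signal follows RNA was not tested, so no limit on a change in Gli1 RNA is drawn. Gli2, the main activator at the start of a response, read 5.89, 5.15 and 5.87 in ob/ob VE, 5.69, 5.78 and 5.84 in ob/ob vehicle, and 5.81, 5.81 and 5.50 in wild type. Its difference was -0.13 in ob/ob VE minus ob/ob vehicle (SE 0.230, n = 3, limma adjusted p 0.857), and 0.11 without the second ob/ob VE array. Gli3, which acts mostly as the pathway's repressor, read 8.64, 8.41 and 8.10 in ob/ob VE, 8.69, 7.67 and 7.85 in ob/ob vehicle, and 8.25, 8.20 and 8.76 in wild type. The first ob/ob vehicle array was as high as any wild-type array but 1, and the other two were the lowest of the 9. The Gli3 differences were -0.33 in ob/ob vehicle minus wild type and 0.31 in ob/ob VE minus ob/ob vehicle (SE 0.281 each, n = 3, limma adjusted p 0.529 and 0.680).

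**Figure D2:**
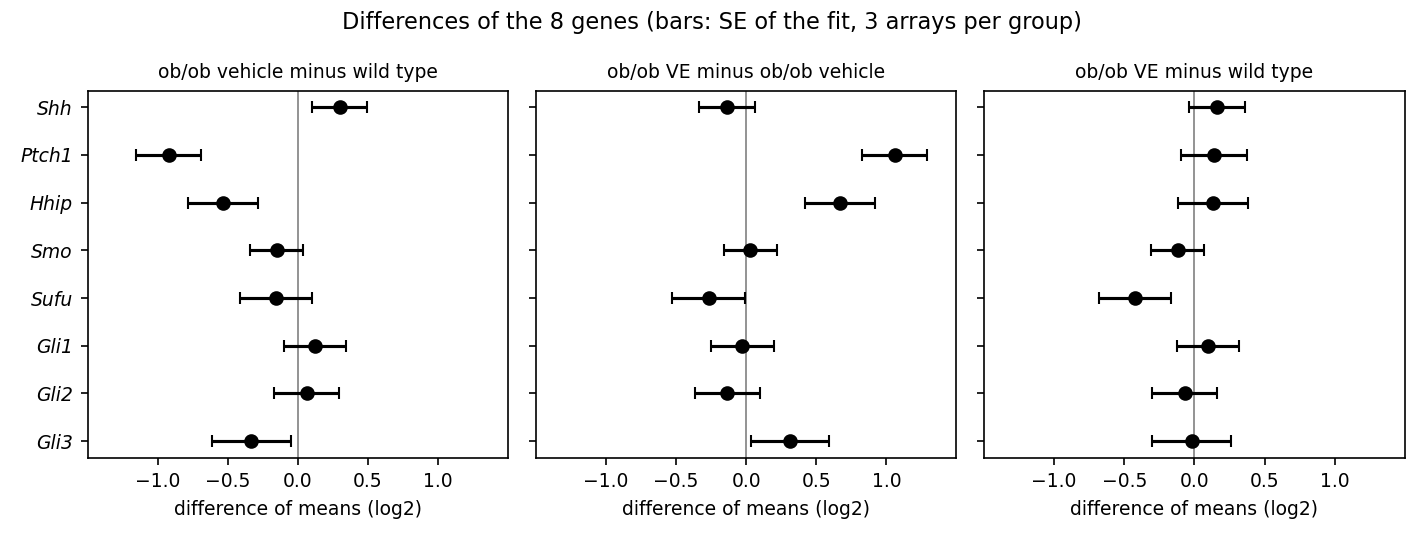
Differences of group means in log2 units on the x axis for the 8 genes, 1 panel per comparison, with points for the difference and bars for the SE of the fit (3 arrays per group). Ptch1 stands at -0.92, 1.06 and 0.14 in the 3 panels, and the Gli1 difference lies between -0.03 and 0.12.

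Of the 7 genes other than Ptch1, limma called 0 in ob/ob vehicle against wild type, where 1.27% of all probe sets were called, and 0 had an unadjusted p under 0.05, where 20.1% of all probe sets did. It called 0 of the 7 in ob/ob VE against ob/ob vehicle, where 0.486% of all probe sets were called, and 1 (Hhip) had an unadjusted p under 0.05, where 13.3% of all probe sets did. It called 0 of the 7 in ob/ob VE against wild type, where 0.0991% of all probe sets were called, and 0 had an unadjusted p under 0.05, where 12.2% of all probe sets did. Arrays of the 2 groups did not overlap, with ob/ob vehicle lower, for 2 of 8 genes in the first comparison, against 17.5% of all probe sets. They did not overlap, with ob/ob VE higher, for 2 of 8 in the second, against 4.62% of all probe sets. In ob/ob VE against wild type, where 16.8% of all probe sets did not overlap in either direction, this held for 0 of 8. The genes were picked with these comparisons known, so nothing is read from the counts. The median difference of the 8 genes was -0.15, 0.00 and 0.04 in the 3 comparisons, against 0.02, -0.07 and -0.07 over all probe sets.

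Of 77 symbols listed for the wider Hedgehog pathway and the cilium, 70 were measured, the 8 genes included. Disp2 and Kcnj10 were called lower in ob/ob vehicle than in wild type, which makes 2 of the 62 genes other than the 8, and limma called 0 of the 62 in ob/ob VE against ob/ob vehicle and 0 in ob/ob VE against wild type. Of all probe sets, 1.27%, 0.486% and 0.0991% were called in these comparisons. An unadjusted p under 0.05 was found for 9, 8 and 3 of the 62 in these comparisons, where 20.1%, 13.3% and 12.2% of all probe sets had one, so the counts were near or below the background. The median difference of the 62 other genes was -0.14 in ob/ob vehicle minus wild type, with 25 positive and 37 negative, and 0.09 in ob/ob VE minus ob/ob vehicle, with 41 positive and 21 negative. These lists were chosen with results of these data known, and they share members.

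Among genes for the release of ligand, Disp2, a brain relative of the Hedgehog-releasing transporter Disp1, fell by 0.99 in ob/ob vehicle against wild type (SE 0.206, n = 3, limma adjusted p 0.0417). Disp2 read 10.50, 10.84 and 10.62 in ob/ob vehicle, against 11.67, 11.72 and 11.54 in wild type, with no overlap. On the ob/ob VE arrays it read 10.76, 10.24 and 10.60, in the range of ob/ob vehicle rather than of wild type (difference of ob/ob VE minus wild type -1.11, SE 0.206, limma adjusted p 0.0634). The Disp2 call ended after quantile normalization (-0.73, limma adjusted p 0.0591) and after cyclic loess (-0.72, limma adjusted p 0.0521), and with the replicate number as a block (-0.99, limma adjusted p 0.0509). It also ended without ob/ob VE array 3 (limma adjusted p 0.0555) and without any 1 array of the 2 compared groups (limma adjusted p 0.0886 to 0.199). Scube3, a secreted protein of the family that helps ligand leave the cell, was at 0.85 in ob/ob vehicle minus wild type and -1.14 in ob/ob VE minus ob/ob vehicle (SE 0.332 each, n = 3, limma adjusted p 0.179 and 0.147), opposite in sign to Ptch1. Hhat, which attaches palmitate to the ligand, was at -0.24 and 0.20 (limma adjusted p 0.626 and 0.794), and both signs turned without the first ob/ob vehicle array.

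Among co-receptors, Cdon, which binds ligand together with Ptch1, was at -0.63 in ob/ob VE minus ob/ob vehicle (SE 0.274, n = 3, limma adjusted p 0.333), and Gas1, a membrane-anchored co-receptor whose mean signal was at the 0.6th percentile of all probe sets, was at 0.24 in ob/ob vehicle minus wild type (SE 0.203, limma adjusted p 0.531). In the list of 7 measured receptors and ligand-binding proteins, Ptch1 included, none was called. The list medians were -0.15 in ob/ob vehicle minus wild type and 0.03 in ob/ob VE minus ob/ob vehicle.

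Among 18 measured transducers none was called in any comparison. Gpr161, a receptor of the primary cilium that keeps the pathway off, read 8.93, 8.0 and 8.56 in ob/ob VE, 9.45, 10.03 and 9.71 in ob/ob vehicle, and 9.26, 10.13 and 9.85 in wild type. All 3 ob/ob VE arrays lay below the 6 others. Its difference was -1.23 in ob/ob VE minus ob/ob vehicle (SE 0.287, n = 3, limma adjusted p 0.0762) and -0.02 in ob/ob vehicle minus wild type (SE 0.287, limma adjusted p 0.979). The Gpr161 difference from ob/ob vehicle was called after quantile normalization (-1.23, limma adjusted p 0.0425), after cyclic loess (-1.21, limma adjusted p 0.0285) and with array weights (-1.17, limma adjusted p 0.00118), and without the second ob/ob VE array it was -0.98 and was not. Tulp3, which brings Gpr161 into the cilium, was at 0.64 in ob/ob vehicle minus wild type and -0.74 in ob/ob VE minus ob/ob vehicle (SE 0.221 each, limma adjusted p 0.142 and 0.158). Stk36, a kinase related to the fly regulator fused, was at -0.45 in ob/ob VE minus ob/ob vehicle (limma adjusted p 0.465). Spop and Btrc, ubiquitin ligase adaptors that act on Gli proteins, were at -0.71 (SE 0.295) and -0.64 (SE 0.245) in ob/ob vehicle minus wild type (limma adjusted p 0.201 and 0.174).

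Among 17 measured target genes, Kcnj10, an inward-rectifying potassium channel that Shh is known to sustain in mouse astrocytes, fell by 1.43 in ob/ob vehicle against wild type (SE 0.218, n = 3, limma adjusted p 0.0207). Kcnj10 read 10.88, 10.56 and 10.90 in ob/ob VE, 10.43, 9.84 and 9.86 in ob/ob vehicle, and 11.42, 11.41 and 11.59 in wild type, and the 3 groups did not overlap. Its difference of ob/ob VE minus ob/ob vehicle was 0.74 (SE 0.218, n = 3, limma adjusted p 0.151). The Kcnj10 call was lost without ob/ob vehicle array 2, without ob/ob vehicle array 3, or without any 1 wild-type array (limma adjusted p 0.0845 to 0.148). Sox2, a transcription factor of neural stem cells and glia, was at -0.52 in ob/ob vehicle minus wild type (SE 0.190, limma adjusted p 0.154). Igfbp6, which encodes an insulin-like growth factor binding protein, was at 0.78 in ob/ob VE minus ob/ob vehicle (SE 0.273, limma adjusted p 0.225). Over the 17 targets 14 differences were positive and 3 negative in ob/ob VE minus ob/ob vehicle, with a median of 0.17, and 8 were positive and 9 negative in ob/ob vehicle minus wild type, with a median of -0.25. The medians over all probe sets were -0.07 and 0.02 in these comparisons. The 17 include Gli1, Hhip and Ptch1, which was chosen on these same values, so nothing is read from the counts.

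Of 19 measured genes for transport along the cilium, 0 were called in the 3 comparisons. Dync2li1, a subunit of the motor that carries cargo back from the ciliary tip, was at -0.54 in ob/ob vehicle minus wild type and 0.53 in ob/ob VE minus ob/ob vehicle (SE 0.238 each, n = 3, limma adjusted p 0.228 and 0.354). Dync2h1, the heavy chain of that motor, was at 0.54 (SE 0.251, limma adjusted p 0.376), and Ift81, an intraflagellar transport protein, was at 0.54 (SE 0.272, limma adjusted p 0.423), both in ob/ob VE minus ob/ob vehicle. Ift20 and Ift122, of the same transport particles, were at -0.45 and -0.31 in ob/ob vehicle minus wild type (limma adjusted p 0.368 and 0.435).

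**Figure D3:**
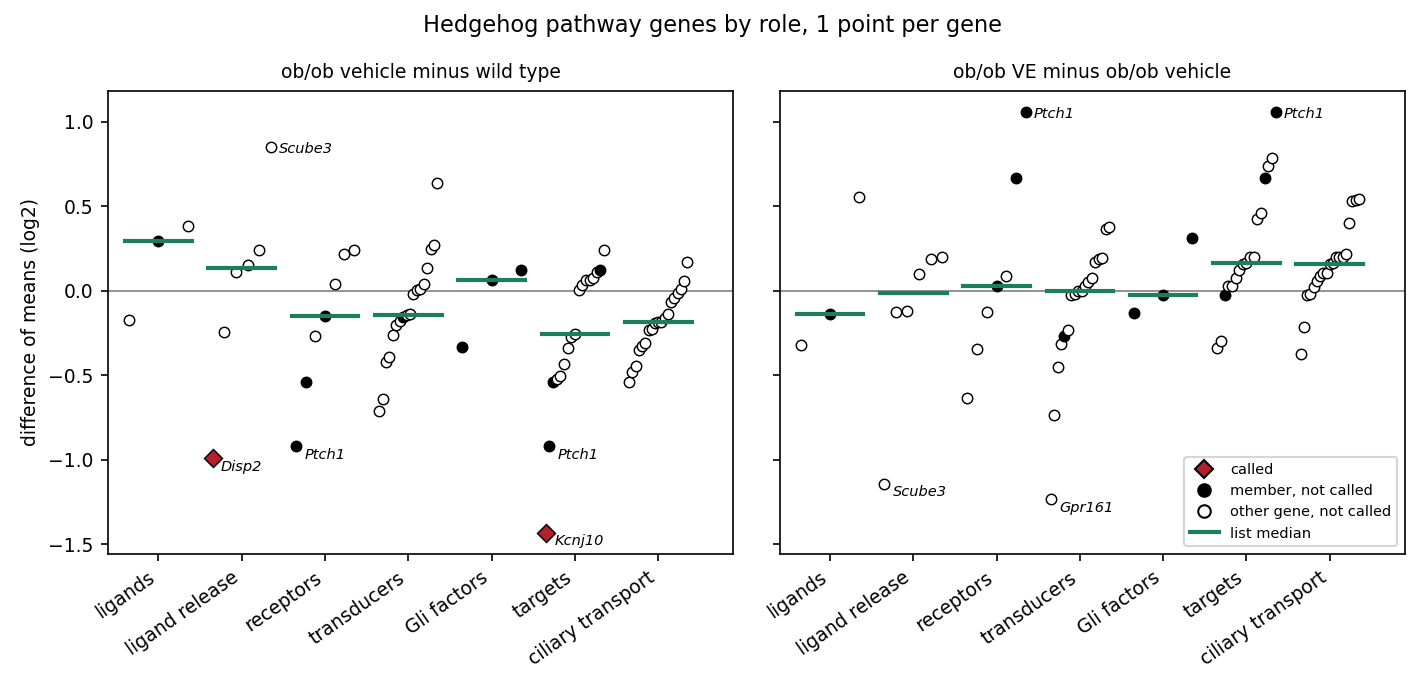
Difference of group means in log2 units on the y axis for 70 genes of the Hedgehog pathway and cilium, grouped by role on the x axis, for ob/ob vehicle minus wild type and ob/ob VE minus ob/ob vehicle (1 point per gene, a gene of 2 lists in both, green lines for list medians). Disp2 (-0.99) and Kcnj10 (-1.43) are the called genes, and Ptch1 is the highest point at 1.06 in the second comparison.

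Astrocyte markers were at lower signals in ob/ob brain given vehicle than in wild type. Of 10 of them, 10 were lower in ob/ob vehicle than in wild type and 3 were called (Aqp4, Gfap and Sox9), with a median of -0.71. Over all probe sets 1.27% were called in that comparison. The mean over the list was 11.22, 11.81 and 12.05 on the ob/ob VE arrays, 11.40, 11.57 and 11.86 on the ob/ob vehicle arrays, and 12.30, 12.40 and 12.47 on the wild-type arrays, each in rising order. The lowest ob/ob VE value was on the array that stood apart. In ob/ob VE minus ob/ob vehicle 6 of the 10 markers were positive and 4 negative, with a median of 0.33 and none called. Fgfr3, a growth factor receptor of astrocytes, had differences of -0.74 in ob/ob vehicle minus wild type, 0.77 in ob/ob VE minus ob/ob vehicle and 0.03 in ob/ob VE minus wild type, while Gfap, the intermediate filament of astrocytes, was at -1.40, -0.08 and -1.48. These 2 markers were chosen after their values were seen. Fgfr3 had the highest of the 10 differences in ob/ob VE minus ob/ob vehicle. The negative markers there other than Gfap were Slc1a2 (-0.80), Aldoc (-0.73) and Slc1a3 (-0.53), all lower than Gfap. On the ob/ob VE arrays Slc1a2 read 17.75, 14.96 and 17.14 and Aldoc 17.82, 15.03 and 17.62. Their ob/ob vehicle means were 17.41 and 17.56, so these 2 differences rested on the second ob/ob VE array, which stood apart. Slc1a3 read 10.60, 10.10 and 10.34 in ob/ob VE, against an ob/ob vehicle mean of 10.88. Of 8 oligodendrocyte markers, 8 were lower in ob/ob vehicle than in wild type (median -1.17, 2 called), with list means of 9.78 to 10.77 in ob/ob VE, 9.94 to 10.46 in ob/ob vehicle and 10.96 to 11.72 in wild type. The part of astrocytes, oligodendrocytes or any other cell type listed here in the Ptch1 difference was not tested. Of 6 neuronal markers, 6 were lower in ob/ob vehicle than in wild type (median -0.51, 0 called), with list means of 13.47 to 15.17 in ob/ob VE, 14.43 to 14.94 in ob/ob vehicle and 15.14 to 15.49 in wild type. The list medians of ob/ob vehicle minus wild type were also negative for choroid plexus (-1.48, Folr1 and Kl called), Purkinje cells (-0.65, Car8 called), Bergmann glia (-0.47, Gdf10 called) and oligodendrocyte precursors (-0.45, none called). They were -0.24 for ependymal cells (Pltp called), -0.19 for cerebellar granule cells (none called) and -0.01 for fibroblasts of vessels and meninges (Igf2 called). All probe sets were also split into 20 bins by mean signal. The median of ob/ob vehicle minus wild type was -0.233 in the bin of Ptch1 and 0.21 in that of Gli1, at lower signal. Marker differences were not corrected for this dependence on signal.

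The genes with the most similar pattern to Ptch1 over the 9 arrays, by Pearson correlation among 9731 genes above the median signal, were Cbln2, Nap1l3, Cxxc5, Ccpg1os, Ldlrad4 and Metap2. Correlations were 0.978 for Cbln2, a secreted synaptic organizer, 0.977 for Nap1l3, of the nucleosome assembly protein family, and 0.972 for Cxxc5, a zinc finger protein. They were 0.955 for Ccpg1os, a transcript opposite Ccpg1, 0.947 for Ldlrad4, an inhibitor of transforming growth factor beta signalling, and 0.947 for Metap2, a methionine aminopeptidase. Spearman's rho was 0.983, 0.933, 0.983, 0.783, 0.85 and 0.867 in the same order, and the median Pearson r over the 9731 genes was 0.183, with 51 genes over 0.9. Without the 2 arrays farthest from the Ptch1 median, which were ob/ob vehicle arrays 2 and 3, r was between 0.726 and 0.912. Within groups, after group means were taken off, r was 0.777 to 0.937. All arrays of a pair of genes share their RNA and scaling, and the genes were picked for this likeness, so the values are a description.

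Cbln2 had the widest swing of these genes. It read 9.0, 8.98 and 9.40 in ob/ob VE, 8.24, 7.06 and 7.27 in ob/ob vehicle, and 9.64, 8.39 and 8.90 in wild type, a difference of 1.60 in ob/ob VE minus ob/ob vehicle and -1.45 in ob/ob vehicle minus wild type. As for Ptch1, the first ob/ob vehicle array was the highest of its group and the first wild-type array the highest of its own. The other 5 genes differed by 0.67 to 1.00 in ob/ob VE minus ob/ob vehicle and by -1.02 to -0.47 in ob/ob vehicle minus wild type. Among pathway genes that were above the median signal, the most alike was Sox2 (r 0.824, rank 216), followed by Kcnj10 (r 0.798, rank 308). Among the 8 genes, those with a mean signal above that median were compared, and r was 0.662 for Gli3, 0.628 for Hhip, 0.131 for Smo and -0.402 for Shh (ranks 984, 1187, 5320 and 8435). Without the same 2 arrays r was 0.565 for Sox2, 0.271 for Kcnj10, -0.289 for Gli3 and 0.297 for Hhip, so for Kcnj10, Gli3 and Hhip the relation did not hold without them.

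**Figure D4:**
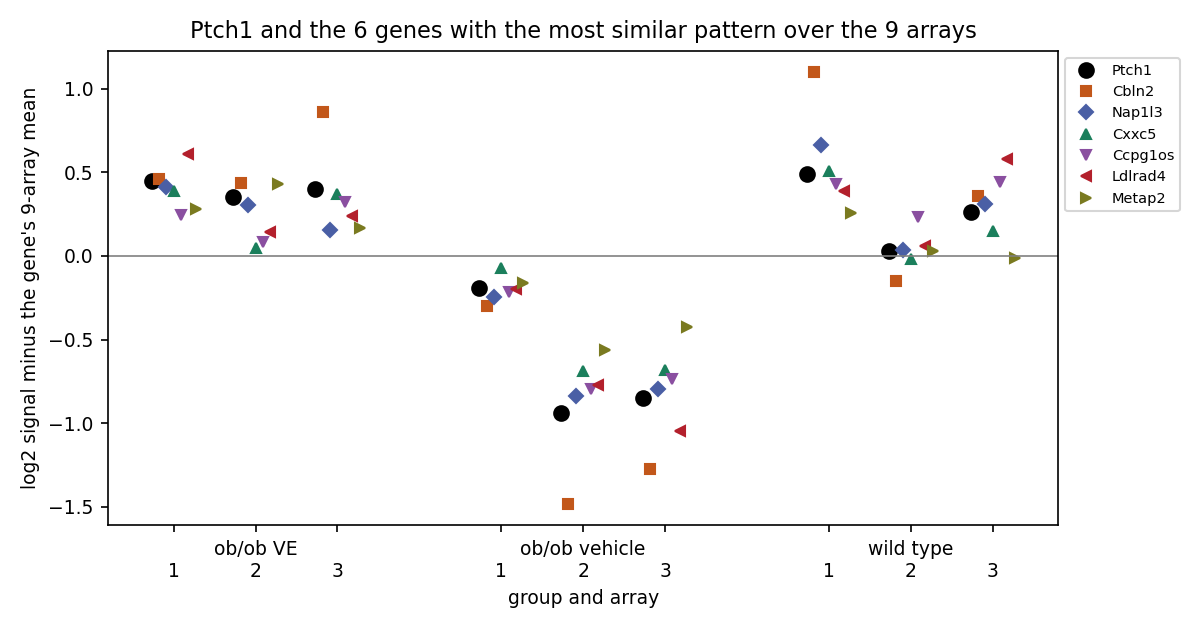
Log2 signal minus each gene's mean over the 9 arrays, on the y axis, for Ptch1 and the 6 genes with the highest Pearson correlation with it, with arrays 1 to 3 of ob/ob VE, ob/ob vehicle and wild type on the x axis (1 point per gene and array). The ob/ob vehicle arrays lie lowest for all 7 genes, and the first of them lies nearest to the other groups.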

How the data were processed

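The deposited values are log2 signals of 22206 probe sets that, per the labels' design text, the authors summarised by SST-RMA, a background, normalization and summary method, using Transcriptome Analysis Console 4.0.2. Genes were named from the platform annotation: 19572 probe sets had 1 symbol, and 2634 with none or several were left unnamed. The members, gene lists and tests were chosen with earlier results of these data known. A model of 3 group means was fitted to all 9 arrays by limma (version 3.58.1, R 4.3.3), which left 6 residual degrees of freedom, to which moderation added 7.03. P-values were adjusted over all probe sets by Benjamini and Hochberg. Intervals are 95% intervals of that fit for single genes and are not adjusted. SD values are over the 3 arrays of a group, whose number limits the precision. For each pathway list the text names every called gene and the 3 genes with the smallest p in each of the first 2 comparisons, and for likeness to Ptch1 the 6 highest correlations. Alternatives were other scalings (quantile, median centring, cyclic loess), moderation with trend and robust priors, array weights, filters, 2 groups alone, the replicate number as a block, the authors' call rule (unadjusted p under 0.05, fold over 1.1), an adjusted p under 0.1, and leaving out each array. The fit was tested on simulated data. Promoter windows were read from a RefSeq table on GRCm38.p6. A dose of 50 mg/kg in the design text was not analysed here.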

Additional observations from a re-analysis of the deposited data

How the results depend on the processing

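The sign of the Ptch1 difference was kept under all 19 alternatives in each comparison, from 0.92 to 1.295 in ob/ob VE minus ob/ob vehicle and from -1.155 to -0.73 in ob/ob vehicle minus wild type. For ob/ob VE minus wild type it was 0.39 after quantile normalization and 0.35 after cyclic loess, against 0.14. Of the 8 genes, the number called in ob/ob VE against ob/ob vehicle was 1 after quantile normalization, cyclic loess, quantile normalization without VE array 2, trend and robust moderation, the filter above the median level, the replicate block or an adjusted p under 0.1, and 2 with array weights or the authors' rule, against 0. In ob/ob vehicle against wild type it was 1 after median centring, quantile normalization without VE array 2, array weights, the 2 compared groups alone, the authors' rule or an adjusted p under 0.1, against 0. Leaving out 1 array gave 0 to 1 in both, with 1 only without VE array 2. These counts include Ptch1, which was chosen on the same values, so nothing is read from them, and the 7 other genes gave a call at an adjusted p under 0.05 only with array weights (Hhip, ob/ob VE against ob/ob vehicle). Of the 70 pathway genes, Ptch1 among them, the number called in ob/ob vehicle against wild type was 1 after quantile normalization, cyclic loess or the replicate block, 8 with array weights, 5 for 2 groups alone and 10 by the authors' rule, against 2, and 0 to 8 without 1 array (8 without VE array 2). For ob/ob VE against ob/ob vehicle the number of the 70 was 2 after quantile normalization, cyclic loess or an adjusted p under 0.1, 1 after quantile normalization without VE array 2, trend and robust moderation, the median filter or the replicate block, 13 with array weights and 10 by the authors' rule, against 0, and 0 to 1 without 1 array. Over all probe sets that comparison had 3307 calls with array weights and 2962 by the authors' rule. For ob/ob VE against wild type the number of the 70 was 5 with array weights, 1 with the median filter or an adjusted p under 0.1 and 3 by the authors' rule, against 0, and 0 to 2 without 1 array. Over all probe sets there were 3286 calls with array weights and 2707 by the authors' rule. The cause of these changes between settings was not tested.

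Small uncalled differences turned sign, and leaving out 1 array gave the ranges below. For ob/ob VE minus ob/ob vehicle, Gli1 was 0.102 after quantile normalization, 0.097 after centring, 0.090 after loess, 0.071 after quantile normalization without VE array 2, 0.163 with array weights, and -0.155 to 0.150 without 1 array. Gli2 was 0.245 after quantile normalization without VE array 2, 0.077 with array weights and -0.260 to 0.110 without 1 array. Smo was -0.032 with array weights and -0.050 to 0.115 without 1 array. Sufu was 0.158 after quantile normalization without VE array 2 and -0.475 to 0.065 without 1 array. Disp2 was 0.003 after centring and -0.233 to 0.027 without 1 array, and Hhat -0.115 to 0.430. For ob/ob vehicle minus wild type, Gli1 was -0.052 after quantile normalization, -0.048 after loess and -0.053 after quantile normalization without VE array 2. Gli2 was -0.114, -0.109 and -0.115 under the same 3 settings, -0.010 after centring and -0.040 to 0.115 without 1 array. Hhat was -0.473 to 0.072 without 1 array. For ob/ob VE minus wild type, Gli1 was -0.032 to 0.273 and Hhip -0.078 to 0.343 without 1 array. Gli2 was 0.130 after quantile normalization without VE array 2, 0.169 with array weights and -0.197 to 0.173 without 1 array. Gli3 was 0.142 after quantile normalization, 0.030 after centring, 0.136 after loess, 0.012 after quantile normalization without VE array 2 and -0.148 to 0.158 without 1 array.

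After group means were removed, the 9 pairs of same-numbered arrays correlated at -0.032 to 0.331 and the 18 pairs with different numbers at -0.289 to 0.111. Of the 9, 4 were over 0.1, including all 3 pairs of arrays numbered 1, so the numbers were not taken to pair the samples, which would need every pair over 0.1. With the replicate block the Disp2 call was lost (limma adjusted p 0.0509). Over all probe sets the calls ran from 0 to 2975 in ob/ob vehicle against wild type, 0 to 403 in ob/ob VE against ob/ob vehicle and 0 to 158 in ob/ob VE against wild type without 1 array, against 281, 108 and 22, and over the other settings from 206 to 4457, 0 to 3307 and 0 to 3286. The mean over a gene's probe sets was not run, since each of the 8 genes had 1. Alternatives for the other pathway genes were chosen after seeing the data. With 3 arrays per group, the width of the printed intervals limits which differences could be detected.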
